A study of Mus musculus with 27 samples.

Results

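The genes described here are 10 members of the innate immune sensing system of mouse skeletal muscle: the Toll-like receptors Tlr1, Tlr2, Tlr4, Tlr7, Tlr8, Tlr9 and Tlr13, the co-receptors Cd14 and Ly96, and the adaptor Myd88. They were found by symbol among the 54532 genes of the deposited expression table, where each occurred in 1 row, and their levels were read in all samples. The tibialis anterior muscles came from C57BL/6 mice, given by the public record as 8-week-old males, and were sequenced as bulk poly-T selected RNA. A volumetric muscle loss injury (VML), in which 40% of the muscle is cut away, preceded explantation by 3, 7, 14 or 21 days. The day 3 and day 21 groups held 5 samples each, the day 7 and day 14 groups 6 each, and 5 samples were uninjured. The record calls the excision unilateral and the study's methods bilateral, and the labels do not settle which holds or whether 2 samples came from 1 animal, so p-values measure the spread between samples, which may in part be technical.

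Toll-like receptors recognise conserved microbial structures and molecules released by damaged tissue. Tlr1, Tlr2 and Tlr4 sit on the cell surface, where Tlr2 pairs with Tlr1 or Tlr6 to bind lipoproteins and Tlr4 binds lipopolysaccharide with the help of Cd14 and of Ly96 (MD-2). Tlr7, Tlr8, Tlr9 and Tlr13 lie in endosomes and sense nucleic acids, and need the transport protein Unc93b1 to get there. All of these receptors signal through Myd88, which recruits IRAK kinases and leads to NF-kappaB and inflammatory cytokines. In injured muscle these genes are mostly known from macrophages, neutrophils and dendritic cells that enter the tissue.

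The receptors and co-receptors were low in uninjured muscle, stood highest on average at day 3 and declined afterwards. All 10 genes had their highest group mean at day 3, and 7 had their lowest without injury. Cd14 and Tlr13 had the largest differences at day 3 and Tlr4 the smallest of the 8 genes that were tested. At day 21 none of the 8 was called against uninjured muscle by limma.

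Levels are given as FPKM, fragments scaled by the authors to gene length and to a denominator for sequencing depth. Reads are the whole reads that FPKM and gene length give back. The recovered reads totalled 14376395 to 24436763 per sample. Markers of muscle fibres summed to at least 14620 FPKM in every sample. Over the 14630 genes tested, 9 of the 27 samples lay nearer to the mean of another group than to that of their own. Among them, day 3 replicate 5 lay nearest to the day 7 samples, day 7 replicate 5 to the day 3 samples, day 7 replicate 3 to the uninjured samples and day 7 replicate 6 to the day 21 samples. Results that depend on single samples are given without them. In bulk tissue, more cells of a type and more RNA per cell cannot be told apart.

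Short stretches upstream of the start site are shown for 5 receptors, 3 that rose most and 2 that stayed near 0, to give the sequence that lies before genes moving together. They come from RefSeq promoter windows (250 bases before to 50 after the start, build GRCm38.p6), of which 6 of the 10 genes had at least 1, and end before the first annotated exon base. Capitals mark matches, on either strand, to an ETS core (GAGGAA), AP-1 (TGANTCA), C/EBP (TTGCNNAA), an interferon response element (GAAANNGAA), a TATA box (TATAAA) or NF-kappaB, and adjoining or overlapping matches are merged.
Tlr13, chrX:106143084-106143203, plus strand: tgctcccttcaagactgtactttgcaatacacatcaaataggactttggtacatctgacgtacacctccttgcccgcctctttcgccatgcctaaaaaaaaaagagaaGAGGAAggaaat
Tlr2, chr3:83841768-83841858, minus strand: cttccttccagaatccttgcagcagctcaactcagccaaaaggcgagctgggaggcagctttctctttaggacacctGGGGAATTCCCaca
Tlr1, chr5:64933564-64933683, minus strand: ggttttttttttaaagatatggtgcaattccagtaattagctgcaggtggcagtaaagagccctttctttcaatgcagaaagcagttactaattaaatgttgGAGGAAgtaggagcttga
Tlr9, chr9:106222478-106222597, plus strand: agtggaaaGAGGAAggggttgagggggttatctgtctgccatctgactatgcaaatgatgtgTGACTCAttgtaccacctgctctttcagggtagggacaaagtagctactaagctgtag
Tlr8, chrX:167264330-167264449, minus strand: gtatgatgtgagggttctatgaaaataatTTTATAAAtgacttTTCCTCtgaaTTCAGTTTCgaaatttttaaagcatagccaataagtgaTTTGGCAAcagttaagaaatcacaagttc
Tlr13, Tlr1, Tlr9 and Tlr8 each held an ETS core, which was also in 28.3% of all 32851 promoter windows. An AP-1 match was printed for Tlr9 alone, against 7.81% of all windows. The NF-kappaB match of Tlr2 is of a kind in 4.51% of all windows, and the interferon response match of Tlr8 of a kind in 8.56%. C/EBP matches were in 10.8% and TATA boxes in 13.6% of all windows. These shares are over whole windows of 300 bases, longer than the printed stretches, so the 2 cannot be compared directly. The windows of Tlr13, Tlr2, Tlr9 and Tlr8 held further matches outside the printed stretches. A second window of Tlr1, not printed, held none of the 6 motifs. These are matches of letters, not bound sites. No motif was found in the printed stretches of Tlr13, Tlr2 and Tlr1 together.

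Tlr13, a mouse endosomal receptor for bacterial ribosomal RNA, went from almost no reads to the highest mean of any Toll-like receptor at day 3. It lies on the X chromosome at 106143204 to 106160493. The uninjured samples held 0, 0, 0, 0.0396 and 0.0755 FPKM, which were 6 reads in all. At day 3 the samples held 1.20, 3.81, 3.85, 5.95 and 7.14 FPKM, 2099 reads in all. The groups did not overlap, and the lowest day 3 sample was replicate 5. Scaled by the denominator in FPKM, reads were 225 times as frequent at day 3 as in uninjured muscle (95% interval 103 to 614, exact, for counting error only). That denominator averaged 1.25 times a sample's recovered reads at day 3 and 0.782 times in uninjured muscle, so the ratio depends on it. On the log2(FPKM + 1) scale, which understates changes of low genes, the difference was 2.27 ± 0.35 (SE) with an adjusted p of 1.71e-05 (limma, Benjamini-Hochberg over all genes tested).

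At day 7 Tlr13 ranged from 0.168 to 6.84 FPKM with a median of 0.635, and replicate 5 stood far above the next sample at 1.52. The difference from uninjured muscle was 1.03 ± 0.33 (adjusted p = 0.0211), and the call was lost without the filter on low values (adjusted p = 0.0527). Without day 7 replicate 5 and day 3 replicate 5 it was 0.65 (adjusted p = 0.00715). These 2 samples were picked for lying near another group, so leaving them out also tends to narrow the spread. The day 14 samples ranged from 0.149 to 0.393 FPKM with a median of 0.270, and those of day 21 held 0.0826, 0.0970, 0.104, 0.216 and 0.401 FPKM. Every sample of both groups was above every uninjured sample, with 124 reads at day 14 and 55 at day 21. The exact two-sided permutation p was 0.00216 at day 14 and 0.00794 at day 21, the smallest that these group sizes allow, unadjusted and 2 of 40 such tests. By limma neither was called (adjusted p = 0.532 and 0.786). Every sample lay above every uninjured sample for 7.67% of all genes tested at day 14 and for 5.26% at day 21. Tlr13 was the 1 gene of the 10 whose day 21 samples did not overlap the uninjured ones.

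**Figure D1:**
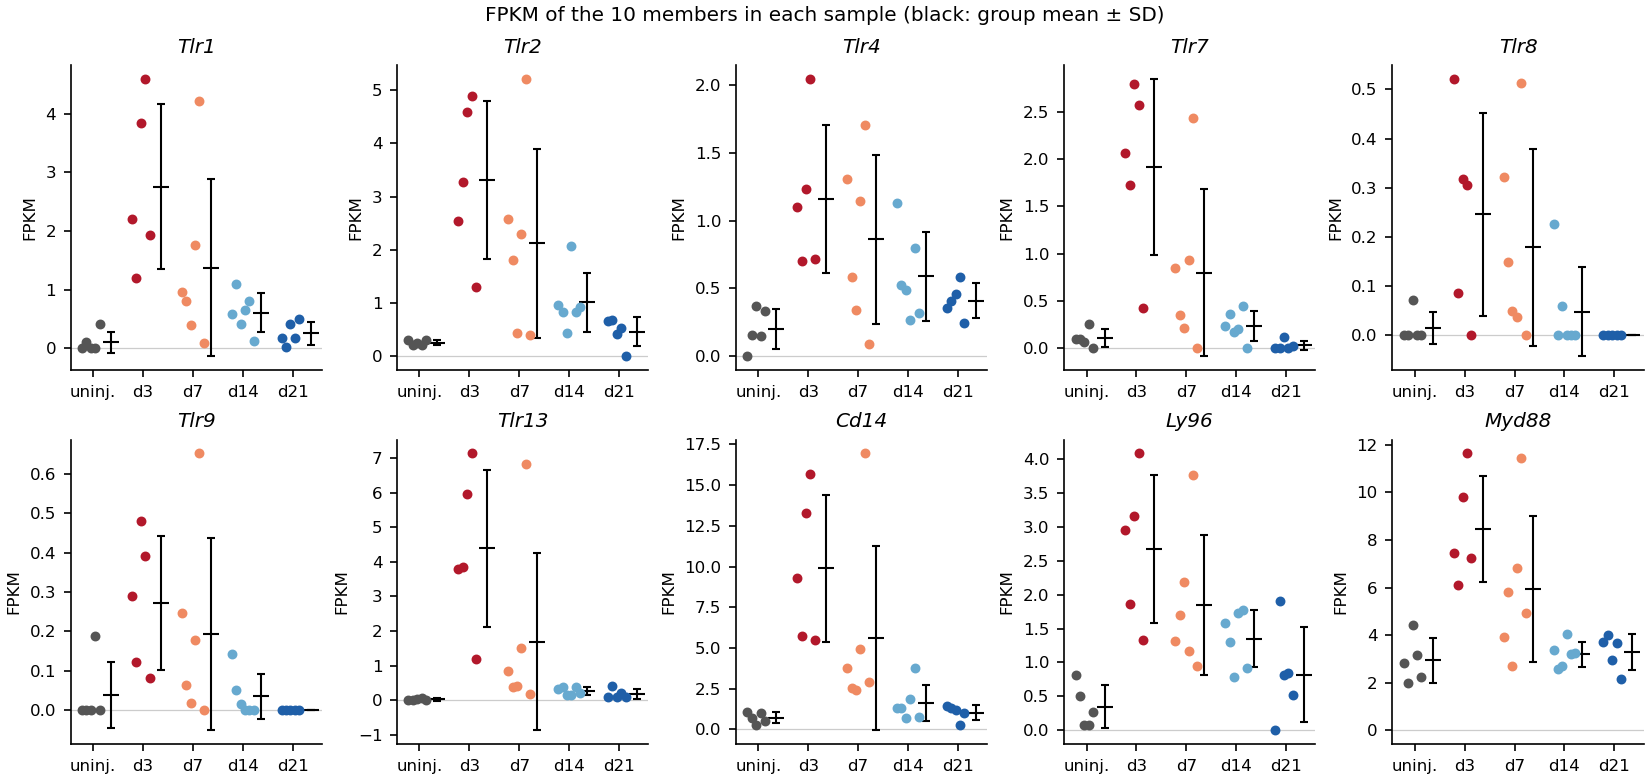
FPKM of each of the 10 genes (1 panel each, own linear axis) in every sample of the 5 groups, with the group mean and SD in black. At day 7 the top point of every panel is replicate 5, and the day 3 samples of all but Tlr8 and Tlr9 lie above all uninjured samples.

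Tlr7, the endosomal receptor for single-stranded RNA, had the profile nearest to that of Tlr13 among the members. It lies on the X chromosome at 167304929 to 167330558, next to Tlr8. Uninjured samples held 0, 0.0626, 0.0920, 0.0996 and 0.259 FPKM, and day 3 samples 0.426, 1.72, 2.07, 2.57 and 2.79 FPKM. The groups did not overlap, but day 3 replicate 5, the lowest, was close to the uninjured samples. Tlr7 rose by 1.33 ± 0.24 on the log2 scale at day 3 (limma adjusted p = 0.00012).

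At day 7 Tlr7 ranged from 0 to 2.44 FPKM with a median of 0.599, and the difference of 0.59 ± 0.23 missed the threshold (limma adjusted p = 0.0582). The call depended on single samples. It was made without day 3 replicate 5 or without day 7 replicate 2, 3 or 6 (adjusted p from 0.0152 to 0.0496), and without day 7 replicate 5 the adjusted p was 0.179. The day 14 samples held 0 to 0.443 FPKM, with a median of 0.215, and overlapped the uninjured ones. Tlr7 held 9 reads in all 5 day 21 samples against 28 in the uninjured ones. Scaled by the denominator in FPKM, the ratio was 0.304 (95% interval 0.126 to 0.663, exact, counting error only). The 2 groups overlapped, and the difference of -0.10 ± 0.24 was not called (adjusted p = 0.859).

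Tlr8 and Tlr9, endosomal sensors of RNA breakdown products and of unmethylated CpG DNA, stayed too low for the filter of 0.5 FPKM in 5 samples and were not part of the main test. Without injury Tlr8 had 3 reads, and the groups of day 3, 7, 14 and 21 had 99, 113, 22 and 0. Tlr9 had 8, 109, 122, 15 and 0 reads in the same order. For both genes, then, nearly all reads came from day 3 and day 7, and a count of 0 over the 5 day 21 samples allows a level of up to 0.0114 FPKM for Tlr8 and 0.0118 FPKM for Tlr9 (3 reads over the group, counting error only).

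At day 3 Tlr8 held 0, 0.0852, 0.306, 0.317 and 0.521 FPKM and Tlr9 held 0.0811, 0.123, 0.289, 0.391 and 0.479 FPKM. In uninjured muscle each had reads in 1 of 5 samples, at 0.0713 FPKM for Tlr8 and 0.187 FPKM for Tlr9. The groups overlapped for both genes. The exact permutation p at day 3 was 0.0476 for Tlr8 and 0.0238 for Tlr9, unadjusted. When no filter was applied, limma gave differences of 0.28 (adjusted p = 0.0486) for Tlr8 and 0.29 (adjusted p = 0.0452) for Tlr9.

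Tlr2, the surface receptor for bacterial lipoproteins, was low but detected in every uninjured sample and rose at day 3 and day 7. It lies on chromosome 3 at 83836272 to 83841767. The uninjured samples were close together at 0.212, 0.216, 0.254, 0.295 and 0.299 FPKM. Day 3 samples held 1.29, 2.54, 3.27, 4.59 and 4.89 FPKM, all above that range and again lowest in replicate 5. The rise was 13-fold in the means and 1.70 ± 0.30 on the log2 scale (limma adjusted p = 9.38e-05).

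The day 7 samples ranged from 0.399 to 5.21 FPKM with a median of 2.05, and the day 14 samples from 0.425 to 2.08 FPKM with a median of 0.880. All samples of both groups were above all uninjured samples. The day 7 difference was called at 1.12 ± 0.29 (adjusted p = 0.00598), and the day 14 difference was not at 0.64 ± 0.29 (adjusted p = 0.117), with an unadjusted exact permutation p of 0.00433. Without day 3 replicate 5 and day 7 replicate 5, which share in the estimate of the spread, the day 14 difference was called too (adjusted p = 0.0428). Neither sample is in the day 14 comparison, and the difference stayed at 0.64. They were picked for lying near another group, so leaving them out tends to narrow the spread, and the call adds no support. Day 21 samples held 0, 0.416, 0.530, 0.669 and 0.673 FPKM, on both sides of the uninjured samples.

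Tlr1, the partner of Tlr2 for triacylated lipoproteins, went from 26 reads in uninjured muscle to 1047 at day 3. It lies on chromosome 5 at 64924679 to 64933563 beside its close relative Tlr6, with which reads of shared sequence could be exchanged, so both are uncertain to that extent. Uninjured samples held 0, 0, 0, 0.104 and 0.408 FPKM, the last in replicate 5 with 20 of the 26 reads. Day 3 samples held 1.21, 1.94, 2.21, 3.84 and 4.59 FPKM, with no overlap. The rise was 1.70 ± 0.29 on the log2 scale at day 3 (limma adjusted p = 6.24e-05).

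The day 7 samples of Tlr1 ranged from 0.0959 to 4.22 FPKM with a median of 0.878, again highest in replicate 5, and the rise was 0.92 ± 0.28 (limma adjusted p = 0.0155). Day 14 samples ranged from 0.127 to 1.09 FPKM with a median of 0.613, and day 21 samples held 0.0224, 0.177, 0.179, 0.410 and 0.509 FPKM. All these groups overlapped uninjured muscle. Tlr1 was not called at day 14 (0.53 ± 0.28, adjusted p = 0.175) or day 21 (0.19 ± 0.29, adjusted p = 0.756).

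Tlr4, the lipopolysaccharide receptor, moved least of the surface receptors among the members. It lies on chromosome 4 at 66827584 to 66930284. Uninjured samples held 0, 0.146, 0.157, 0.332 and 0.368 FPKM and day 3 samples 0.704, 0.719, 1.10, 1.23 and 2.05 FPKM, with no overlap. Tlr4 rose 5.79-fold in the means and by 0.82 ± 0.20 on the log2 scale (limma adjusted p = 0.00184). The day 7 samples ranged from 0.0867 to 1.71 FPKM (median 0.865) and the day 14 samples from 0.264 to 1.13 FPKM (median 0.506). Day 21 samples held 0.242, 0.352, 0.406, 0.462 and 0.587 FPKM, and all these groups overlapped uninjured muscle. The day 7 call (0.57 ± 0.19, adjusted p = 0.0280) was lost when any 1 of 6 samples was left out, with an adjusted p of up to 0.0851 without day 7 replicate 5.

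Cd14, the co-receptor that hands lipopolysaccharide to Tlr4, had the largest difference on the log2 scale at day 3 of all members. It lies on chromosome 18 at 36725074 to 36726736. Uninjured samples held 0.271, 0.521, 0.702, 1.03 and 1.05 FPKM and day 3 samples 5.47, 5.76, 9.27, 13.3 and 15.7 FPKM. The groups were far apart, with a rise of 13.8-fold in the means and of 2.59 ± 0.36 on the log2 scale (limma adjusted p = 5.77e-06). At day 7 Cd14 ranged from 2.39 to 16.9 FPKM with a median of 3.35, all above uninjured, and rose by 1.67 ± 0.34 (adjusted p = 0.00115). Day 7 replicate 5 was again far above the next sample, at 4.95 FPKM, and without it and day 3 replicate 5 the difference was 1.32 (adjusted p = 0.00120). The day 14 range was 0.713 to 3.75 FPKM (median 1.32) and the day 21 samples held 0.254, 1.03, 1.18, 1.29 and 1.43 FPKM, both overlapping uninjured muscle (adjusted p = 0.263 and 0.759).

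Ly96, which completes the lipopolysaccharide receptor by binding Tlr4 outside the cell, was the only member called at day 14. It lies on chromosome 1 at 16688051 to 16709611. Uninjured samples held 0.0796, 0.0835, 0.268, 0.512 and 0.809 FPKM and day 3 samples 1.33, 1.86, 2.96, 3.16 and 4.08 FPKM, and the ranges at day 7 (0.943 to 3.77 FPKM, median 1.51) and day 14 (0.784 to 1.77 FPKM, median 1.45) were mostly or wholly above uninjured muscle. The difference was 1.42 ± 0.25 at day 3 (limma adjusted p = 9.98e-05). It was 1.04 ± 0.24 (adjusted p = 0.00306) for day 7 and 0.81 ± 0.24 (adjusted p = 0.0209) for day 14. The day 14 call did not hold without uninjured replicate 3, uninjured replicate 4 or day 14 replicate 5, each of which gave an adjusted p between 0.0523 and 0.0562. At day 21 Ly96 held 0, 0.526, 0.818, 0.847 and 1.91 FPKM, spread around the uninjured range (adjusted p = 0.426).

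Myd88, the shared adaptor, was the 1 member that was clearly expressed without injury, and its relative rise was the smallest. It lies on chromosome 9 at 119335934 to 119341411 and shares exon bases with Acaa1a on the other strand, whose reads cannot be told apart in these libraries without strand. Uninjured samples held 2.01, 2.25, 2.83, 3.18 and 4.43 FPKM and day 3 samples 6.12, 7.24, 7.44, 9.81 and 11.6 FPKM, without overlap. This was a rise of 2.87-fold in the means and of 1.26 ± 0.23 on the log2 scale (limma adjusted p = 0.000113). At day 7 the range was 2.71 to 11.4 FPKM (median 5.37), overlapping uninjured muscle, and the rise was 0.74 ± 0.22 (adjusted p = 0.0135). At day 14 (2.57 to 4.06 FPKM, median 3.23) and day 21 (2.16, 2.96, 3.67, 3.70 and 3.99 FPKM) Myd88 lay within the uninjured range (adjusted p = 0.748 and 0.777).

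**Figure D2:**
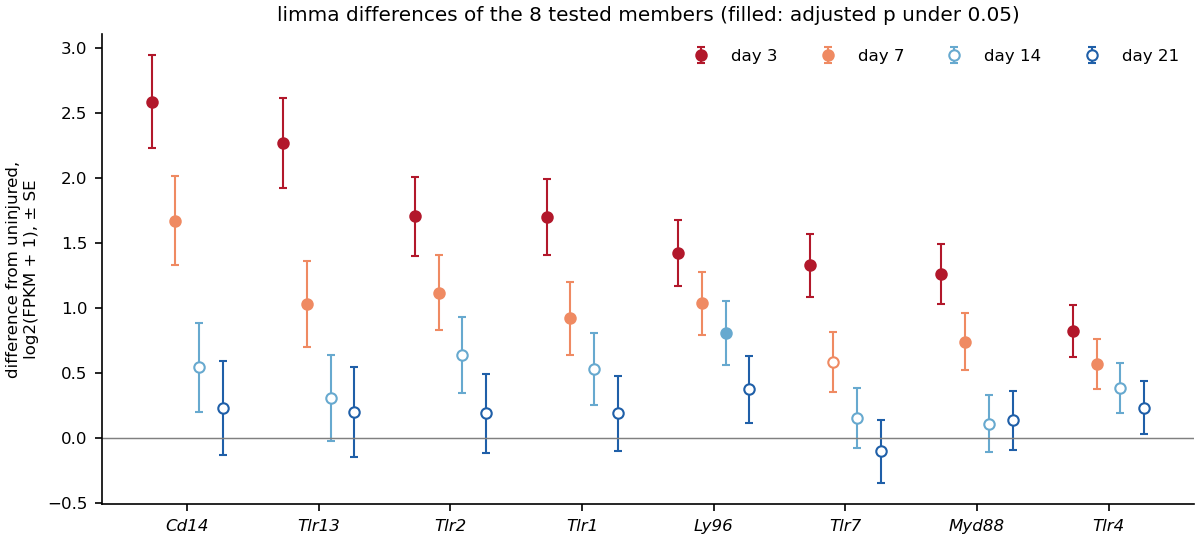
Differences from uninjured muscle on the log2(FPKM + 1) scale, with their SE from limma, for the 8 members tested at 4 time points; filled circles were called at an adjusted p under 0.05. The day 3 circles run from 0.82 for Tlr4 to 2.59 for Cd14 and all are filled, and at day 21 none is.

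Counted together, all 8 members tested were called higher at day 3, where 23.4% of the 14630 genes tested were. Over all genes 3417 were higher and 2899 lower, but 6868 were higher and 322 lower once FPKM was rescaled to a common sum. The day 7 count was 7 of 8 (15% of all genes tested) and that of day 14 was 1 of 8 (9.02%). For day 21 it was 0 of 8 (1.74%), also 0 at an unadjusted p under 0.05 and with voom weights on the recovered reads. Tlr1, Tlr2, Tlr4, Tlr7 and Tlr13 had no uninjured sample at the filter's minimum and passed it only through injured muscle, so that these counts describe the members and support nothing further. The day 3 and day 7 comparisons share the uninjured samples. With no overlap between samples as the measure, 8 of the 10 members stood apart from uninjured muscle at day 3, where 19.8% of all genes tested had every sample above every uninjured sample. At day 7 these were Tlr2, Tlr13, Cd14 and Ly96 (7.25% of all genes tested) and at day 14 Tlr2 and Tlr13 (7.67%).

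The decline after day 3 was seen in the order of the means, but its single steps were not separated from the spread. Means fell from each day to the next for 9 members, the exception being Myd88, whose day 21 mean was just above that of day 14 (below it with FPKM rescaled to a common sum or to each sample's own reads). The only neighbours in any member's order that did not overlap were day 21 and uninjured for Tlr13. By limma none of the 8 was called lower at day 7 than at day 3, where 0.0478% of all genes tested were. None was lower in day 14 than day 7 samples (0.219% of all genes tested) or in day 21 than day 14 samples (0%). At an unadjusted p under 0.05 there were 5, 3 and 0, and with voom weights 0 in each.

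The day 7 versus day 3 result depended on which samples were kept. Day 7 replicate 5 was the highest of its group for all 10 members, and day 3 replicate 5 the lowest of its group for 7 of 10. With both left out, 7 of 8 members were called lower at day 7 than at day 3, all but Tlr4, beside 11.9% of all genes tested. These 2 samples were picked for their place, the day 3 one near day 7 and the day 7 one near day 3, so leaving them out widens the difference by construction. With day 7 replicates 3 and 6 left out as well, which lay nearest to groups with lower levels, 4 of 8 were called lower (Tlr1, Tlr7, Tlr13 and Cd14), beside 8.78% of all genes tested. Without day 7 replicate 5 alone the count was 6, and without day 3 replicate 5 alone it was 2. Over the whole interval, in a comparison chosen after the data were seen, all 8 were called lower at day 21 than at day 3, by 0.59 ± 0.20 for Tlr4 up to 2.35 ± 0.36 for Cd14 on the log2 scale, where 16.2% of all genes tested were called lower. The Tlr4 call was lost without day 3 replicate 1, 3 or 4 or day 21 replicate 1, 2 or 5 (adjusted p up to 0.130), with voom weights (7 of 8 called) and without the filter (adjusted p = 0.0696).

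The mix of receptors differed between groups as a description, with no test. FPKM is scaled by gene length, so that levels can be summed across the 12 mouse receptors. Their sum was 1.78 ± 0.328 FPKM (SD, n = 5) in uninjured muscle and 16.4 ± 6.72 at day 3 (n = 5). It was 9.11 ± 8.47 for day 7 (n = 6), or 5.95 ± 3.80 without replicate 5 (n = 5), 4.29 ± 1.20 for day 14 (n = 6) and 2.45 ± 0.635 for day 21 (n = 5). Tlr3, an endosomal receptor for double-stranded RNA that uses another adaptor and is not a member, made up the largest mean share without injury, 30.5% ± 13.6. At day 3 it was 6.79% ± 5.75, and Tlr13 had the largest mean share with 25.4% ± 6.10 (range 15% to 30%), against 1.11% ± 1.55 without injury. The Tlr2 share was 14.7% ± 3.45 without injury and 20% ± 3.65 at day 3, and that of Tlr4 was 11.4% ± 8.77 and 7.19% ± 1.59, with overlapping ranges for both. At day 21 the Tlr13 share was 7.10% ± 3.83 and the Tlr7 share 1.13% ± 1.83, below the 11.2% ± 3.55 that Tlr7 had at day 3.

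**Figure D3:**
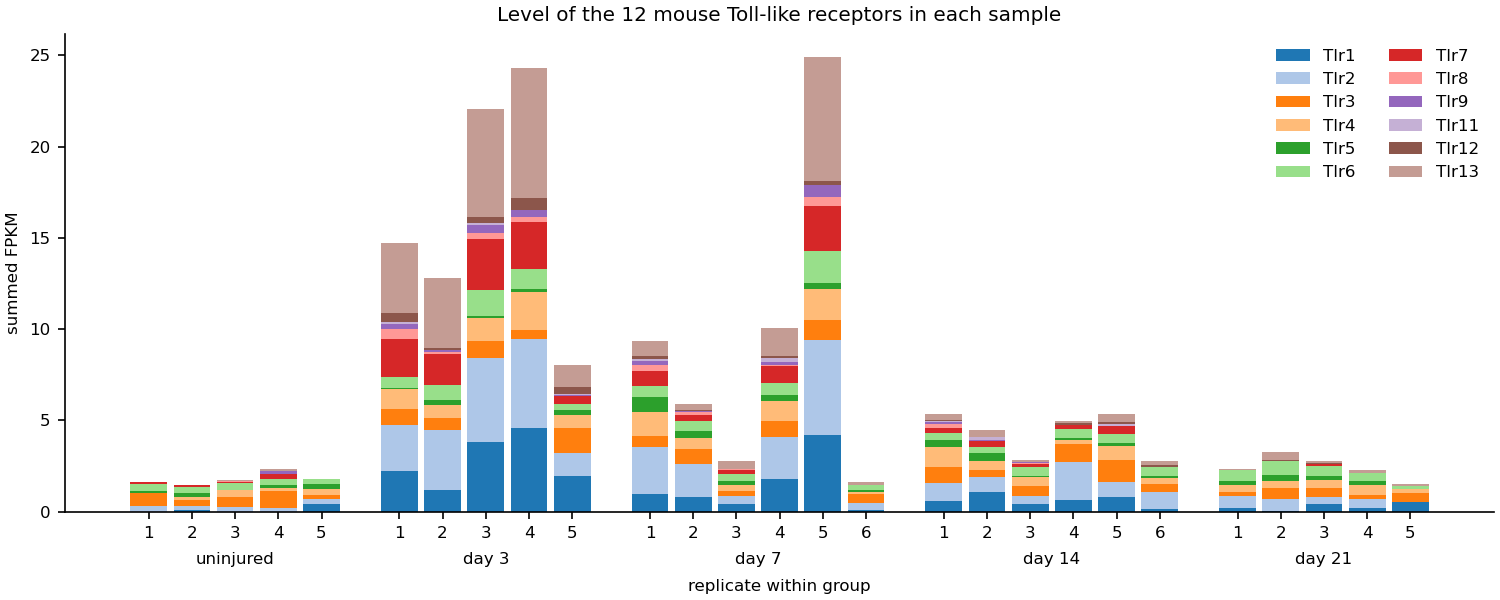
Stacked FPKM of the 12 mouse Toll-like receptors in each sample, by group and replicate. The stacks are highest at day 3 replicates 3 and 4 and at day 7 replicate 5, where Tlr13, Tlr2 and Tlr1 are the largest layers.

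The other 5 receptors were low in all groups. Of the 2 that passed the filter, Tlr6 was called higher at day 3, with 0.852 ± 0.425 FPKM (SD, n = 5) against 0.328 ± 0.042 without injury and a log2 difference of 0.45 ± 0.17 (SE, limma adjusted p = 0.0314). Tlr3 had 0.857 ± 0.324 against 0.552 ± 0.292 FPKM and was not called (0.26 ± 0.16, adjusted p = 0.188), but was with FPKM rescaled to a common sum (0.59, adjusted p = 0.0173). Tlr5, the flagellin receptor, had 0.184 ± 0.105 FPKM at day 3 and 0.163 ± 0.093 without injury. Tlr12 was listed at 0 in all uninjured samples and had 0.394 ± 0.190 FPKM at day 3, and Tlr11 reached 0.0537 ± 0.0830 FPKM at day 7 at most. The Tlr6 call was lost without uninjured replicate 2 or 5 or day 3 replicate 3 or 4 (adjusted p up to 0.113). It was also lost with quantile normalization (limma adjusted p = 0.23), with voom weights (0.063) and without the filter (0.0624).

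Co-receptors and transport proteins other than Cd14 and Ly96 rose at day 3 with 1 exception. Of 9 tested, 8 were called higher and 1 lower (23.4% and 19.8% of all genes tested), with a median log2 difference of 1.05 against 0.01 over all genes tested. Unc93b1, which carries the endosomal receptors out of the endoplasmic reticulum, went from 3.20 ± 0.62 FPKM (SD, n = 5) to 38.2 ± 11.3 (3.18 ± 0.39, SE, limma adjusted p = 1.75e-06). Ly86 (MD-1), the partner of Cd180, went from 0.207 ± 0.160 to 9.23 ± 2.66 FPKM (3.05 ± 0.35, adjusted p = 6.41e-07). The exception was Cd36, a fatty acid transporter that also assists Tlr2 and is abundant in muscle, which fell from 62.7 ± 13.3 to 36.2 ± 4.47 FPKM at day 3 and was 32.8 ± 5.62 at day 21 (-0.91 ± 0.18, adjusted p = 0.00594), the 1 gene of this list called then. With FPKM rescaled to a common sum that call was lost (adjusted p = 0.242).

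Of the adaptors with the same signalling domain as Myd88 or acting beside it, 2 of 3 tested were called higher at day 3 (23.4% of all genes tested). Pik3ap1 (BCAP), which links these receptors to phosphoinositide 3-kinase, went from 0.0146 ± 0.0208 to 1.36 ± 0.65 FPKM (1.18 ± 0.21, limma adjusted p = 8.59e-05). Ticam1 (TRIF), the adaptor of Tlr3, went from 1.33 ± 0.49 to 3.64 ± 0.82 FPKM (1.002 ± 0.20, adjusted p = 0.000233). Tirap, which bridges Myd88 to Tlr2 and Tlr4, had 1.17 ± 0.24 FPKM at day 3 and 1.19 ± 0.28 without injury (adjusted p = 0.974), and is named here after its values were seen.

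Kinases and ubiquitin ligases downstream of Myd88 did not move as a block. Of 17 tested at day 3, 4 were called higher, 3 lower and 10 not, shares near the 23.4% and 19.8% of all genes tested, with a median log2 difference of 0.05. Btk, a kinase of B cells and myeloid cells, rose from 0.0772 ± 0.0713 to 2.14 ± 1.02 FPKM (1.48 ± 0.23, limma adjusted p = 1.92e-05). Tab2, which activates the kinase Map3k7 (TAK1), fell from 21.1 ± 2.46 to 10.1 ± 1.92 FPKM at day 3 (-0.996 ± 0.193, adjusted p = 0.000213) and was the 1 gene of the list called at day 21, with 12.2 ± 2.48 FPKM (-0.76 ± 0.19, adjusted p = 0.0285). Tab2 was not called at day 3 when FPKM was rescaled to a common sum (adjusted p = 0.454), and its day 21 call was lost without any of 4 uninjured or 3 day 21 samples.

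Among 9 transcription factors, 5 were called higher at day 3 and none lower (23.4% and 19.8% of all genes tested). Irf7, which drives type I interferon genes, went from 2.59 ± 0.40 to 13.4 ± 7.18 FPKM (1.86 ± 0.42, limma adjusted p = 0.000878), and Irf8, a factor of myeloid cell identity, from 0.868 ± 0.178 to 5.05 ± 1.95 FPKM (1.64 ± 0.29, adjusted p = 7.91e-05). Nfkb2, a subunit of the non-canonical NF-kappaB pathway, was the 1 gene of all the pathway lists called higher at day 21, with 9.003 ± 1.499 against 4.10 ± 1.08 FPKM (0.98 ± 0.26, adjusted p = 0.0345). That call was lost without any of 4 uninjured or 3 day 21 samples, with an adjusted p of up to 0.0966. The adjusted p was 0.266 when FPKM was rescaled to a common sum. Of the 10 inhibitors tested, Socs1 (0.96 ± 0.31, adjusted p = 0.0136) and Irak3 (0.62 ± 0.18, adjusted p = 0.00583) were called higher at day 3, and 8 were not called (23.4% of all genes tested were higher).

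Endogenous ligands, molecules of damaged tissue and matrix that can activate Tlr2 or Tlr4, included some of the largest changes. At day 3, 6 of 9 tested were called higher (23.4% of all genes tested), with a median log2 difference of 1.16. Tnc (tenascin-C), a matrix protein of injured tissue, went from 0.420 ± 0.253 to 13.8 ± 6.78 FPKM (3.23 ± 0.36, limma adjusted p = 4.24e-07). S100a8, a calcium-binding protein of neutrophils and monocytes, went from 0.768 ± 0.575 to 12.7 ± 5.59 FPKM (2.92 ± 0.60, adjusted p = 0.000373). At day 21 none of the 9 was called.

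Target genes of the pathway that were tested were either called higher or not called at day 3. Of 21 listed, 14 passed the filter. Of these, 9 were called higher at day 3 and none lower (23.4% and 19.8% of all genes tested). None was called higher at day 21 (1.74%). Ccl2, a chemokine for monocytes, went from 0.238 ± 0.232 to 10.1 ± 5.85 FPKM (3.02 ± 0.57, limma adjusted p = 0.000168) and Cxcl10, a chemokine induced by interferon, from 0.124 ± 0.249 to 3.30 ± 1.49 FPKM (1.90 ± 0.33, adjusted p = 7.28e-05). Tnf, named after its values were seen, had 0.174 ± 0.131 FPKM at day 3 and 0.501 ± 0.181 without injury and was not called (-0.35 ± 0.19, adjusted p = 0.131). Its 5 day 3 samples lay below every uninjured sample. The share of all genes tested for which this held was not counted. Ifnb1 was listed at 0 at both times. Over the 87 genes of the 8 pathway lists, 73 were tested, and 37 were called higher and 4 lower at day 3, where 23.4% and 19.8% of all genes tested were. At day 21 the counts were 1 and 2, near the 1.74% and 1.69% of all genes tested. As with the members, some of these genes had no uninjured sample at the filter's minimum and passed it only through injured muscle. Pik3ap1 and Btk were among them, as was the target Ccl3, named after its values were seen, which was listed at 0 without injury. The counts of the lists therefore describe their genes and support nothing further.

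**Figure D4:**
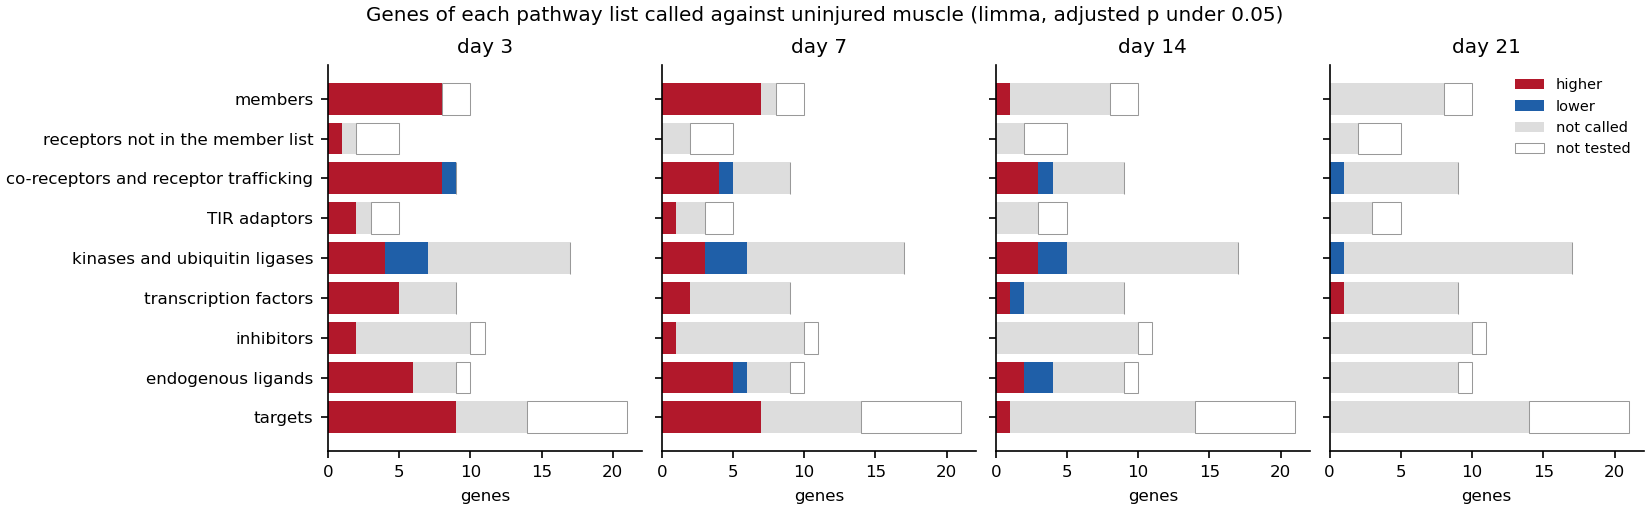
Number of genes of each list that were called higher, called lower, not called or not tested against uninjured muscle, with 1 panel per time point. The red bars shorten from day 3 to day 21, where 1 transcription factor is the only gene called higher.

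Macrophage and monocyte markers moved with the members in the same samples. Their 9 genes summed to 17.04 to 25.3 FPKM in uninjured muscle and 325 to 2166 at day 3. Most of these sums was Lyz2, with means of 16.9 FPKM without injury and 1165 at day 3. The next highest day 3 mean was 144 FPKM for Cd68, and the lowest was 2.68 FPKM for Ly6c2. The sums were 45.9 to 2040 in the day 7 samples, 45.2 to 103 in those of day 14 and 32.3 to 58.0 in those of day 21. The lowest day 3 sum was that of replicate 5 and the highest day 7 sum that of replicate 5. Of the members, 7 of 10 were also lowest in day 3 replicate 5, and all 10 were highest in day 7 replicate 5. The markers' mean log2(FPKM + 1) was 0.93 ± 0.06 (SD, n = 5) in uninjured muscle and 4.28 ± 0.70 at day 3, a larger difference than that of any member. A member's log2(FPKM + 1) minus that mean fell by 0.76 for Cd14, by 1.08 for Tlr13, by 2.08 for Myd88 and by 3.07 for Tlr8 between uninjured and day 3, and for the others by values in between. These differences depend in part on how the log scale shortens changes of low genes. Whether cell number accounts for the members' levels was not tested.

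**Figure D5:**
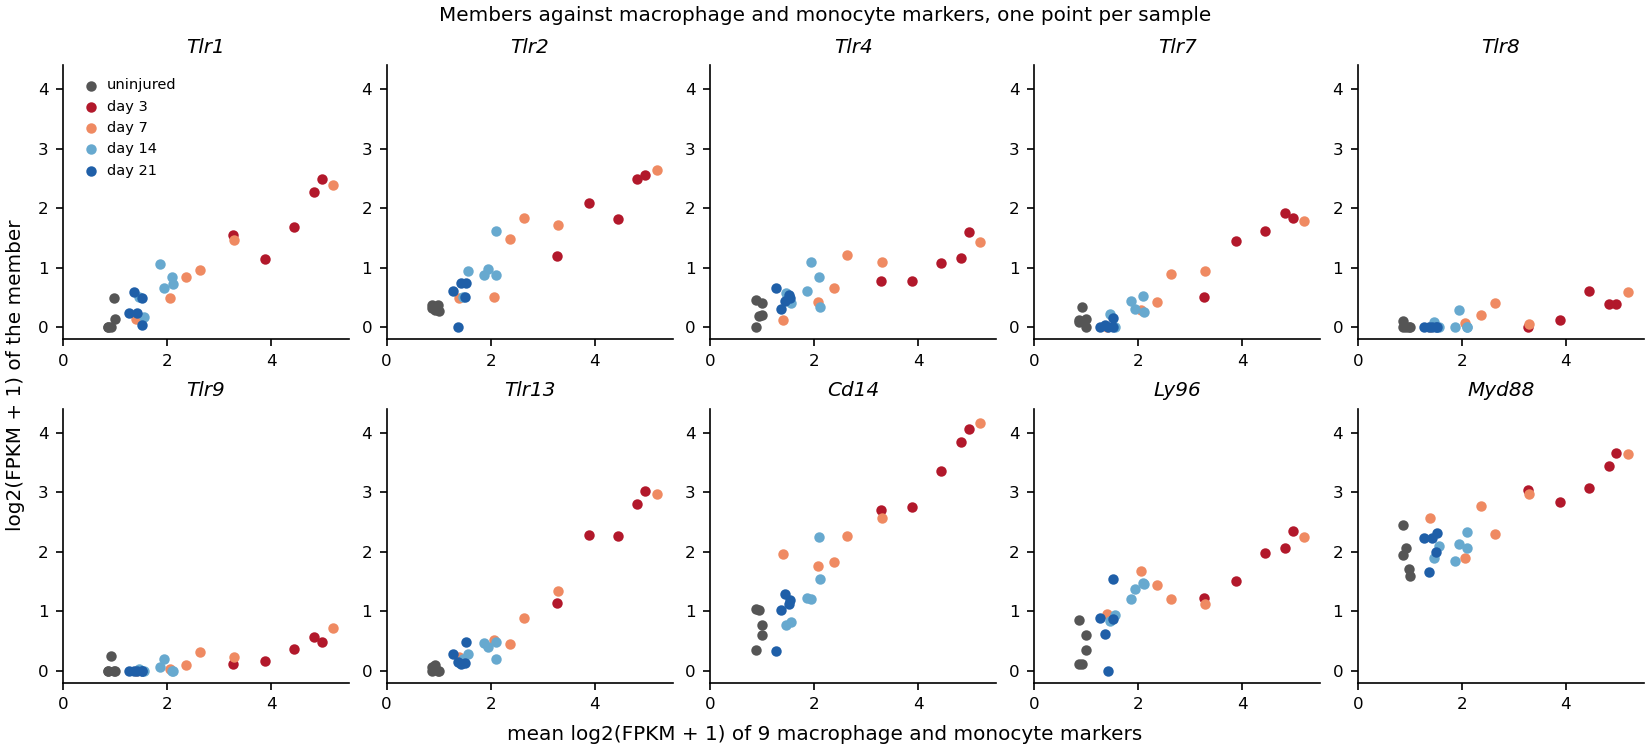
Log2(FPKM + 1) of each member (vertical axis) against the mean log2(FPKM + 1) of 9 macrophage and monocyte markers (horizontal axis), with 1 point per sample. Day 7 replicate 5 is the point farthest to the right, at 5.19 beside 4.97 for the highest day 3 sample, and Myd88 alone is above 1 in every uninjured sample.

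Markers of other immune cells gave smaller sums. The 6 neutrophil genes summed to 0 to 0.567 FPKM in uninjured muscle and 2.03 to 5.53 at day 3, with 0.178 to 11.3 in day 7 and 0.0416 to 0.381 in day 21 samples. Most of the day 3 level was Csf3r, with 3.62 ± 1.40 FPKM (SD) against 0.170 ± 0.105 without injury, the 1 gene of the 6 that passed the filter. The next highest day 3 mean was 0.312 FPKM for Retnlg. The defining marker Ly6g was listed at 0 in all groups but day 3. The 5 dendritic cell genes summed to 0.845 to 1.64 FPKM in uninjured muscle and 2.75 to 6.30 at day 3. Most of that rise was Itgax, with means of 0.0504 FPKM without injury and 3.27 at day 3. Zbtb46 had a lower mean at day 3, 0.743 against 0.877 FPKM, and was not called (limma adjusted p = 0.502). Flt3, Xcr1 and Siglech had higher means at day 3, but only of 0.205, 0.381 and 0.176 FPKM. The 4 B cell genes summed to 0.562 to 1.38 FPKM in uninjured muscle and 0.259 to 0.818 at day 3, and the 5 T and NK cell genes to 0.134 to 0.527 and 0.536 to 2.71 FPKM. Markers of muscle fibres summed to 55620 to 67520 FPKM in uninjured muscle and 14620 to 38300 at day 3. Those of fibro-adipogenic progenitors summed to 58.0 to 74.1 and 91.9 to 154 FPKM. Those of endothelial cells overlapped (55.9 to 67.2 and 37.2 to 83.6). Those of satellite cells (0.904 to 1.918 and 1.921 to 3.79) did not overlap, by a narrow margin. Single genes differed from these sums. Of the endothelial genes, Kdr fell from 9.59 ± 0.52 to 3.29 ± 0.89 FPKM (SD) at day 3 (limma adjusted p = 1.85e-05). Tek was also called lower (adjusted p = 0.0233), and Pecam1 and Cdh5 were not called. Most of the fibro-adipogenic sum was Ly6a, with means of 61.8 FPKM without injury and 104 at day 3. Pdgfra rose from 0.94 ± 0.35 to 2.46 ± 0.41 FPKM (limma adjusted p = 0.000166), and Pi16 was not called (adjusted p = 0.343). Of the satellite cell genes, Pax7 rose from 0.489 ± 0.222 to 1.15 ± 0.27 FPKM (limma adjusted p = 0.00846), and Myf5 was not called (adjusted p = 0.142). The part of all these cell types in the members' levels was not tested.

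The genes with the most similar profiles were found for each member by the root mean square difference of standardized log2(FPKM + 1) over the 27 samples, in SD units. For Tlr13 they were Cd84 (0.156), Nckap1l (0.178) and Anxa5 (0.181), and for Tlr7 they were Apobec1 (0.232), Adgre1 (0.238) and Cd84 (0.244). Cd14 was nearest to Spi1 (0.247), Fermt3 (0.254) and B4galt6 (0.256), and Tlr2 to Dnase2a (0.308), Lgmn (0.318) and Man2b2 (0.320). Cd84, Nckap1l, Fermt3 and Spi1 are known from blood cells, and Dnase2a, Lgmn and Man2b2 encode lysosomal enzymes. Among the nearest genes of Tlr1 were Sgpl1 (0.289) and Hpse (0.290), and among those of Myd88 were Slc9a3r1 (0.395) and Ly6e (0.396). The neighbours of the remaining members were Adamts4, Gm9733 and Siglec1 for Tlr9 (0.367 to 0.375), Slc38a1, Caprin1 and 1700017B05Rik for Tlr4 (0.387 to 0.423), Adamts4, Cd33 and Lilrb4a for Tlr8 (0.471 to 0.534) and Dap, St3gal4 and Anxa1 for Ly96 (0.473 to 0.484). Between members the nearest pair was Tlr7 and Tlr13 (0.248) and the farthest Tlr9 and Ly96 (0.840). Of the 30 neighbours, 23 were the same with a pseudocount of 0.5, 14 with FPKM rescaled to a common sum and 9 with a pseudocount of 0.1.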

How the data were processed

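Reads were aligned by the authors with HISAT2 2.0.5 and counted with featureCounts 1.5.0-p3, per the submitters' processing notes, from non-directional poly-T selected libraries. The authors deposited FPKM with gene lengths, and the build is not given in the sources used here. Of the genes, 54409 were found in GENCODE M21 (GRCm38), 98.3% with the same coordinates, except among the members Cd14. FPKM times gene length gave whole reads (tolerance 0.05), and the denominator in FPKM was 0.747 to 1.48 times each sample's total. This factor differed between groups. It was 0.747 to 0.819 in uninjured samples, 1.14 to 1.48 at day 3 and 0.810 to 1.44 at day 7. At day 14 it was 0.810 to 1.33 and at day 21 it was 0.776 to 0.964. With each sample's own total of reads instead, the median tested gene at day 3 differed from uninjured muscle by 0.404 on the log2 scale, against 0.0121 here. Groups and replicates came from sample titles. FPKM was transformed to log2(FPKM + 1), genes of at least 0.5 FPKM in at least 5 samples were kept (14630), and limma 3.58.1 (R 4.3.3) fitted all groups together with a variance trend. Calls were made at a Benjamini-Hochberg adjusted p of 0.05 within each comparison. Tests were two-sided and the fit was tested on simulated data. The genes named are the members, the other receptors, in each pathway list the 2 largest called changes at day 3 and at day 21, and up to 3 neighbours of each member, of which 2 are not reported here. The members and lists were chosen with earlier results of these data known. Alternatives were other pseudocounts, filters and scalings, no trend, voom, fits of the 2 groups alone, replicate blocks and leaving out each sample. Figures were drawn with matplotlib 3.10.9 in Python 3.11.15.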

Additional observations from a re-analysis of the deposited data

Results flagged for a closer look

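Of 48 sets of values, 1 for each member and group in which the values varied, 9 had a sample whose gap to the next exceeded the 95% limit of Dixon's test. That limit is for independent, normally spread values. These FPKM values include many zeros and the sets share samples, so the count cannot be set against chance. In day 7 replicate 5, Tlr13 was at 6.84 FPKM (next 1.52) and Cd14 at 16.9 FPKM (next 4.95), from 1026 and 928 reads. In day 14, Tlr2 was at 2.08 FPKM in replicate 4 (next 0.970), and Tlr8 at 0.226 FPKM (next 0.0595) and Tlr9 at 0.142 FPKM (next 0.0501) in replicate 1. The others were Tlr1 in uninjured replicate 5 at 0.408 FPKM (next 0.104), Tlr8 in uninjured replicate 3 at 0.0713 FPKM and Tlr9 in uninjured replicate 4 at 0.187 FPKM (all others at 0), and Tlr7 in day 21 replicate 3 at 0.117 FPKM (next 0.0219). All but the Tlr13, Cd14 and Tlr2 values rest on 20 reads or fewer. The cause of these values was not tested.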

How the results depend on the processing

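All 8 members tested were called higher at day 3 under every alternative run with the same filter, and all 10 without a filter. The count of members called at day 7 against uninjured muscle was 3 when the 2 groups were fitted alone and 5 of 10 without a filter, where Tlr4 and Tlr13 lost their calls. At day 14 it was 0 without a filter, with quantile normalization or with voom, 2 with the replicate number as a block or without day 3 replicate 5 and day 7 replicate 5, and 4 with a pseudocount of 0.1 or with the 2 groups alone. Leaving out day 3 replicate 5 and day 7 replicate 5, which were picked for their place, tends to narrow the spread. For day 7 against day 3 the count was 7 without these 2 samples. In a setting chosen after seeing the data, without these and day 7 replicates 3 and 6, it was 4 for day 7 against day 3 and 3 at day 14. Leaving out 1 sample at a time gave 6 to 8 members at day 7, 0 to 1 at day 14, 0 to 6 for day 7 against day 3 and 7 to 8 for day 21 against day 3. It gave 1 to 2 members without overlap at day 21, and 2 to 3 at day 14. The order of group means was that of medians for 8 of 10 members. The cause of these changes was not tested. Directions reversed for uncalled values only: Tlr7 at day 21 against uninjured muscle was 0.01996 with the replicate letter as a block, and Myd88 at day 21 against day 14 was -0.19 with FPKM rescaled to a common sum, -0.13 with each sample's own total of reads, and -0.0203, -0.0090, -0.0129, -0.0346 or -0.0102 when 1 of 5 samples was left out, within a range of -0.0346 to 0.131 over all samples left out in turn.

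Rescaling to a common sum gave a median of all tested genes at day 3 of 0.51 on the log2 scale in place of 0.01, and relative to it the members' differences ran from 0.63 to 2.62. Whether the replicate numbers pair the samples was not settled. The 51 same-numbered pairs had a mean correlation of 0.0217 (range -0.521 to 0.566, 15 over 0.1), against -0.00334 for the 240 other pairs. How many of those other pairs were over 0.1 was not counted. The replicate block gave 8 members at day 3. Levels of Tlr8 and Tlr9 are limited by depth, with at most 79 reads in a sample.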
